A study of Rattus norvegicus with 5 samples.

Results

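Neurons pass signals on by fusing transmitter-filled vesicles with the membrane of the nerve terminal. The genes described here encode the proteins that carry this out, together with relatives that serve other secretory steps. They were taken as the rows of the deposited count table whose symbol starts with Syt (synaptotagmins), Stx (syntaxins), Vamp, Snap, Stxbp (syntaxin-binding proteins), Unc13 (Munc13), Rims (RIM), Rab3, Cplx (complexins), Sv2 or Syn (the synapsin genes only), each followed by its family number or letter. This gave 71 of 17321 genes, and 69 of them had at least 10 counts in at least 2 libraries and were tested. Cplx4, with 1 to 5 counts per library, and Syt8, with 0 to 7, were not tested. Snap91 matches by name only: it encodes AP180, a clathrin adaptor of vesicle retrieval, and not a SNAP-25 relative.

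A VAMP protein on the vesicle coils together with a syntaxin and a SNAP protein on the plasma membrane into a SNARE bundle, which drives fusion. Syntaxin-binding and Munc13 proteins prepare the bundle, complexins hold it in a ready state, and synaptotagmins trigger fusion when calcium enters. RIM and Rab3 proteins tether vesicles at the release site, synapsins hold the reserve pool, and SV2 proteins sit in the vesicle membrane. Other family members serve fusion steps in every cell, and some, such as Munc13-4, serve granule release in blood cells.

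The tissue was lumbar (L4-L6) dorsal horn, which receives sensory input from the hindlimb, from Sprague Dawley rats. The 3 CCI libraries came from animals taken on day 9 after CCI, usually read as chronic constriction injury, a ligation model of neuropathic pain, and the 2 SHAM libraries from animals taken on day 9 after the control operation. The sources used here do not give sex, age, the nerve operated on or whether each library is 1 animal. The spread behind each p-value is therefore that among these 5 libraries and may be technical. The library totals were 20053353 to 23673198 estimated counts. Ribosomal RNA took 16.0% of the counts in CCI 3 and 2.18% to 2.71% in the others. The 8 markers listed for dorsal horn neurons were all present, with a summed level of 1042 to 1176 CPM (counts scaled to library size, with TMM factors) in CCI and 1102 to 1117 CPM in SHAM. All 7 microglial markers were called higher, at a summed 958 to 1103 CPM in CCI and 239 to 277 CPM in SHAM, and 4 of 6 motor neuron markers were called lower, at 72.7 to 144 CPM in CCI and 336 to 529.5 CPM in SHAM. The 7 Schwann cell markers, none called, summed to 186 to 768 CPM in CCI and 183 to 202 CPM in SHAM, and the 5 fibroblast markers, none called, to 56.0 to 662 CPM in CCI and 62.0 to 97.7 CPM in SHAM. The 5 astrocyte markers summed to 6584 to 8270 CPM in CCI and 4723 to 4878 CPM in SHAM. Gfap, the largest part of that sum in every library, was called higher (log2 fold change 1.04). The other astrocyte markers were not called and went both ways. Aqp4 had 0.29 and Slc1a3 had 0.21, while Slc1a2 had -0.09 and Aldh1l1 had -0.43. The 4 oligodendrocyte markers, none called, summed to 24009.5 to 28925 CPM in CCI and 33726 to 34294 CPM in SHAM. No marker on these lists was at 0 in all libraries.

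Of the 69 tested genes of the release machinery, 3 passed the test. Vamp1 and Sv2b, both genes of the synaptic vesicle, fell after CCI, and Unc13d, a Munc13 gene of granule-releasing cells, rose. The calling threshold was an adjusted p no higher than 0.05 in edgeR's quasi-likelihood test together with a fold of 1.5 or more in either direction. By this rule 3 members (4.35%) were called, where 2.84% of all 13511 tested genes were. In the higher direction it was 1 member (1.45%), against 2.58% of all genes, and in the lower direction 2 members (2.90%), against 0.259%. The likelihood ratio test, DESeq2 and limma-voom called no other member. The median log2 fold change was -0.05 over the 69 tested members (quartiles -0.17 and 0.21). Over all tested genes it was 0.01 (quartiles -0.14 and 0.21). On the log2 scale 45 members lay within 0.25 of no change, a count not made over all tested genes. In bulk tissue, fewer cells of a type, a different cut of the tissue and less RNA per cell cannot be told apart.

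**Figure D1:**
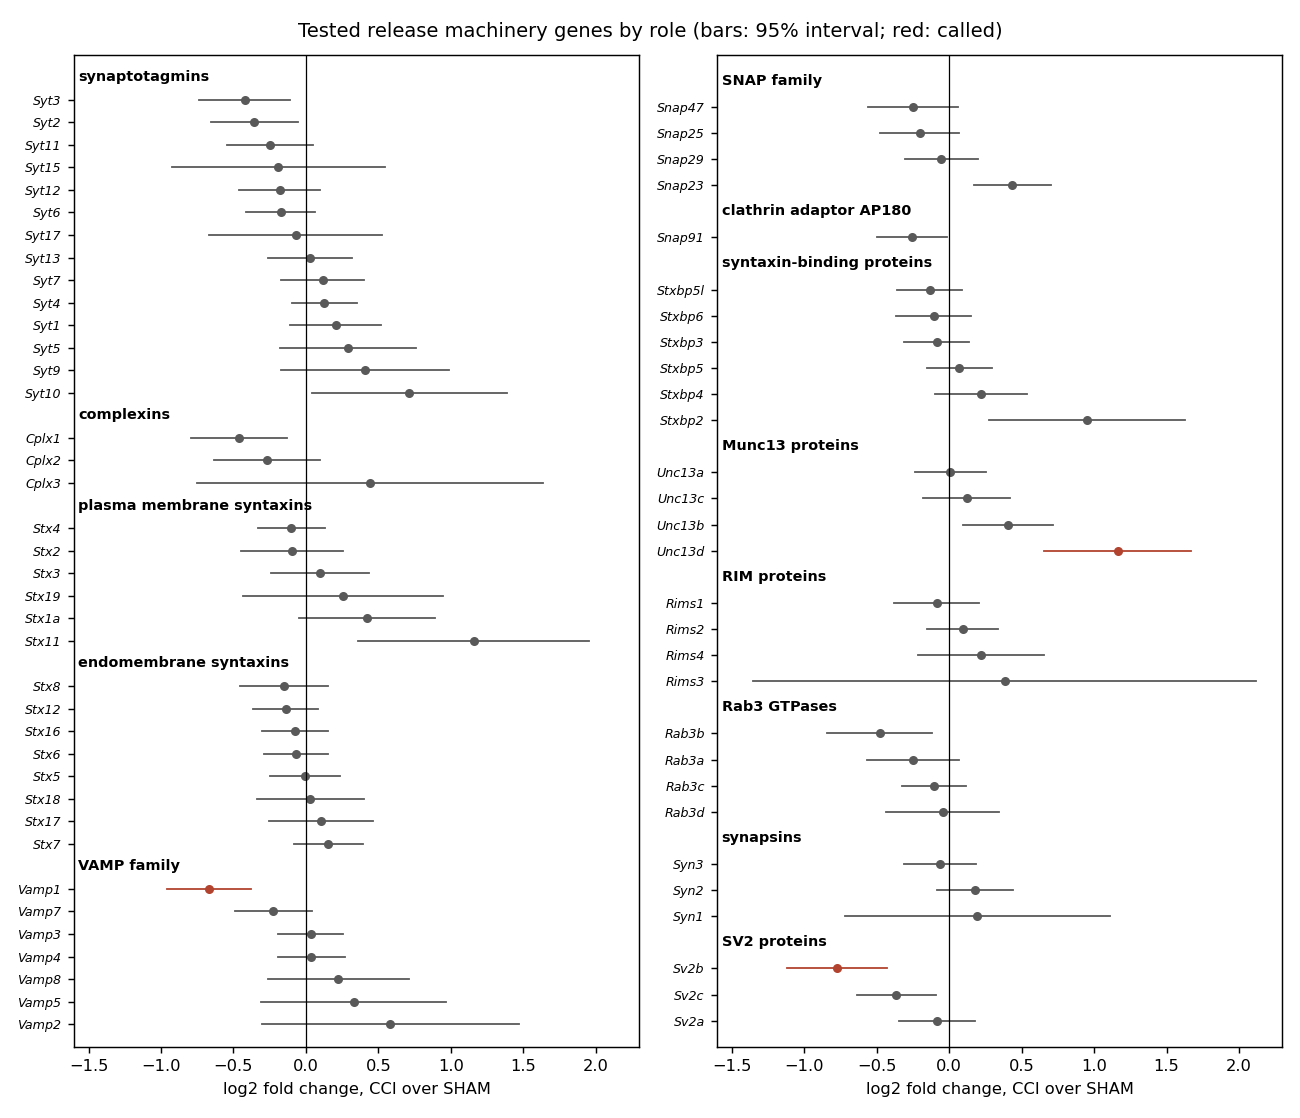
Log2 fold change of CCI over SHAM for tested genes, grouped by role, with 95% intervals from edgeR's quasi-likelihood fit. The called genes, in red, are Vamp1 (-0.67) and Sv2b (-0.78) to the left and Unc13d (1.16) to the right, and most other intervals cross 0.

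The level of each gene per transcript length, from the deposited TPM values, spanned more than 3 orders of magnitude. Snap25, the neuronal SNAP gene, stood highest at 1059 to 1340.3 TPM over the 5 libraries, followed by Vamp1 at 563 to 1012 TPM and Cplx1 at 326 to 494 TPM. Together these 3 made up 33.2% to 35.3% of the summed TPM of all members in CCI and 37.8% to 41.2% in SHAM. In all, 15 members had a mean of at least 100 TPM, 41 had 10 to under 100, 11 had 1 to under 10, and 4 (Stx11, Syt15, Cplx4 and Syt8) had under 1. The sum over all 71 genes was 6158, 5733 and 6223 TPM in CCI 1, 2 and 3, and 6909 and 6645 TPM in SHAM 1 and 2. Every CCI sum was below both SHAM sums, a difference that was not tested. Snap25, Vamp1 and Cplx1 together held 2176, 1962 and 2069 TPM of these sums in CCI, against 2847 and 2513 TPM in SHAM.

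**Figure D2:**
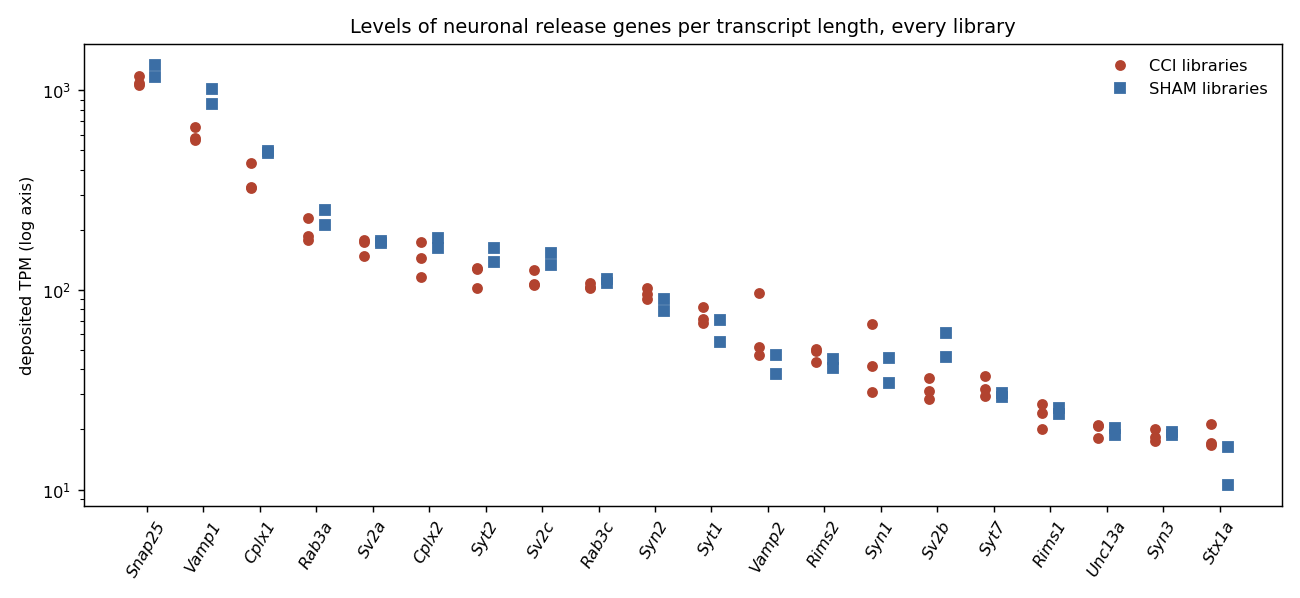
Deposited TPM on a log axis for neuronal release genes, ordered by mean level, with CCI libraries as circles and SHAM libraries as squares. Snap25 stands highest at 1059 to 1340.3 TPM, and the CCI and SHAM points separate for Vamp1, Cplx1 and Sv2b but not for Syt1 or Rims1.

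Among the vesicle SNAREs, Vamp1 fell. Vamp1 encodes VAMP1 (synaptobrevin 1), known in rodents as the main vesicle VAMP of the spinal cord and of motor endings. It stood at 1368, 1190.5 and 1158 CPM in CCI 1, 2 and 3, and at 2124 and 1809 CPM in SHAM 1 and 2. All CCI libraries lay below both SHAM libraries. The CCI mean was 1239 ± 113 CPM (SD, n = 3), and the SHAM mean was 1967 ± 223 CPM (SD, n = 2). In edgeR's quasi-likelihood test this was 1.59-fold lower, a log2 difference of -0.67, with an SE of 0.13, a 95% interval of -0.96 to -0.38 and an adjusted p of 0.0276. The two-sided exact permutation test gave p = 0.1 for Vamp1, the smallest value that the 10 splits of 5 libraries allow, and likewise for Sv2b and Unc13d. The Vamp1 call was lost without CCI 3 (-0.62, adjusted p = 0.0688), without SHAM 1 (-0.55, adjusted p = 0.352), without SHAM 2 (-0.79, adjusted p = 0.0998) and in limma on the deposited TPM (-0.64, adjusted p = 0.0627 with a pseudocount of 0.5).

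Vamp2, the vesicle SNARE that predominates in forebrain, did not pass the test. Its level was 89.8, 81.0 and 165 CPM in CCI 1, 2 and 3, and 66.5 and 82.9 CPM in SHAM 1 and 2. The groups overlapped, and CCI 3 stood far above the rest (log2 fold change 0.58, SE 0.35, adjusted p = 0.477, and 0.19 without CCI 3). Vamp2 had fractional estimated counts, a sign that reads may be shared with other rows, and is uncertain. The same holds for Cplx1, Cplx2, Cplx3, Rims1, Snap25, Stx6, Syn2, Syt2 and Syt11, and for none of the called genes. Per transcript length, Vamp1 exceeded Vamp2 by 12.7, 12.3 and 5.86 times in CCI 1, 2 and 3, and by 26.6 and 18.2 times in SHAM 1 and 2. The other VAMP genes did not pass the test: Vamp7, a lysosomal and neurite VAMP, had -0.22 (adjusted p = 0.389), the recycling VAMP gene Vamp3 had 0.03, the trans-Golgi gene Vamp4 had 0.04, and the endosomal gene Vamp8 had 0.22. Vamp5, at 2.08, 2.50 and 2.33 CPM in CCI, against 1.77 and 1.90 CPM in SHAM, rested on few counts.

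Among the vesicle membrane proteins, Sv2b fell. SV2 proteins are transporter-like glycoproteins of synaptic vesicles that bind synaptotagmin. Sv2b stood at 155, 132 and 120.3 CPM in CCI 1, 2 and 3, and at 265 and 201 CPM in SHAM 1 and 2. The groups did not overlap, with a CCI mean of 136 ± 17.8 CPM (SD, n = 3) and a SHAM mean of 233 ± 44.9 CPM (SD, n = 2). Sv2b was 1.71-fold lower, a log2 fold change of -0.78 (SE 0.15, 95% interval -1.12 to -0.43, adjusted p = 0.0318 by edgeR). That call held in limma on the deposited TPM, and was lost without CCI 3 (-0.70, adjusted p = 0.0898), without SHAM 1 (-0.56, adjusted p = 0.337) and without SHAM 2 (-0.97, adjusted p = 0.054). Sv2a, the form found at most synapses, stood at 510.3, 492 and 419 CPM in CCI, against 495 and 511 CPM in SHAM, and did not pass (-0.09, 95% interval -0.35 to 0.18, adjusted p = 0.743). Sv2c was at 260.0, 218 and 216 CPM in CCI, against 318 and 278 CPM in SHAM, without overlap, and did not pass (-0.37, SE 0.12, adjusted p = 0.178). Per length, Sv2a exceeded Sv2b by 4.92 to 5.58 times in CCI and by 2.81 to 3.81 times in SHAM.

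Beside the lower levels of Vamp1 and Sv2b, motor neuron markers and neurofilament genes were also lower. Chat, the acetylcholine-making enzyme gene on the motor neuron list, was at 39.7, 25.9 and 36.0 CPM in CCI, against 77.1 and 60.2 CPM in SHAM (-1.02, adjusted p = 0.0345). Nefh, the heavy neurofilament gene of large-calibre axons, is on the pan-neuronal list. It was at 1517, 982 and 1125 CPM in CCI, against 3330.0 and 2322 CPM in SHAM (-1.23, adjusted p = 0.0303). The pan-neuronal markers, of which the 3 neurofilament genes were called lower and the other 5 were not called, summed to 6287 to 8558 CPM in CCI and 12201 to 15013 CPM in SHAM. The other 5 had log2 fold changes from -0.68 (Tubb3) to -0.03 (Rbfox3). The part of motor neurons, neurons as a whole or the cut of tissue in the lower Vamp1 and Sv2b levels was not tested.

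The 250 bases before the RefSeq start (build GRCr8) of the genes that fell are shown as the stretch next to the start of each of these transcripts. Capitals mark matches, on either strand, to GGGCGG (the GC box), GAGGAA (a core bound by ETS factors such as PU.1) and TGACGTCA (the cyclic AMP response element). The Vamp1 window lies at chr4:159698644-159698893 on the plus strand and the Sv2b window at chr1:138562259-138562508 on the minus strand.
Vamp1: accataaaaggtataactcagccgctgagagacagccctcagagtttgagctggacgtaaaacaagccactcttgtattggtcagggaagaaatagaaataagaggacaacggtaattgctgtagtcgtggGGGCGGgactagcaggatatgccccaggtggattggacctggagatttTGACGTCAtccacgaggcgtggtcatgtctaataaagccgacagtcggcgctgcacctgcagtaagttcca
Sv2b: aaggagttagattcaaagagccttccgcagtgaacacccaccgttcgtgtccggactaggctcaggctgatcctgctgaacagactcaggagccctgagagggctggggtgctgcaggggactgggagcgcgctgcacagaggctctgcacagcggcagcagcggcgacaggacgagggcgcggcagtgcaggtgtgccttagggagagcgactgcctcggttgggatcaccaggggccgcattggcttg
The Vamp1 window held 1 GC box and 1 cyclic AMP response element, and the Sv2b window held none of the 3 motifs. Over windows of the same length, GGGCGG was present in 30.5% of all 33469 RefSeq promoters and in 62.5% of the 56 members with an entry. TGACGTCA was present in 1.59% of all promoters and in 2 of those 56. The GC content was 50.4% for Vamp1 and 64.0% for Sv2b, with a median of 61.4% over the members and 51.2% over all promoters.

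The calcium sensors did not pass the test. Of 14 tested synaptotagmins none was called, with a median log2 fold change of -0.02 and a range of -0.42 to 0.71. Syt1, the fast calcium sensor of forebrain synapses, was at 97.6, 117 and 102 CPM in CCI, against 79.3 and 103 CPM in SHAM (0.21, 95% interval -0.11 to 0.52, adjusted p = 0.495). Syt2, the fast sensor known in rodents from hindbrain, spinal cord and motor endings, was at 255, 201 and 252 CPM in CCI, against 326 and 279 CPM in SHAM. The Syt2 groups did not overlap, and the difference did not pass (-0.36, 95% interval -0.66 to -0.06, adjusted p = 0.226). Per length, Syt2 exceeded Syt1 by 1.23 to 1.88 times in CCI and by 1.94 to 2.95 times in SHAM. Syt3 was at 97.9, 84.7 and 71.1 CPM in CCI, against 118 and 108 CPM in SHAM (-0.42, adjusted p = 0.176).

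The slower and atypical synaptotagmins were likewise not called. Syt7, the slow, high-affinity sensor, had 0.12 (95% interval -0.17 to 0.40, adjusted p = 0.679). The atypical relatives Syt4 and Syt11 had 0.13 and -0.25 (adjusted p = 0.56 and 0.398). Syt10 had the largest positive log2 fold change of the family, 0.71 (SE 0.29, adjusted p = 0.286), at 8.01, 14.7 and 11.3 CPM in CCI, against 5.55 and 8.34 CPM in SHAM, with CCI 1 inside the SHAM range. Syt5, Syt6, Syt9, Syt12, Syt13, Syt15 and Syt17 lay between -0.19 and 0.41.

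The clamp proteins also did not pass. Cplx1, the main complexin of this tissue, was at 699, 518 and 519.7 CPM in the CCI libraries and 801 and 795 CPM in SHAM. Every CCI library lay below both SHAM libraries, and the 2 SHAM libraries were almost equal. The log2 fold change was -0.46 (SE 0.15, 95% interval -0.79 to -0.13, adjusted p = 0.16 by edgeR), and without CCI 1, the CCI library nearest SHAM, Cplx1 was called lower (-0.62, adjusted p = 0.0192). Cplx2, its close relative, was at 85.8, 99.9 and 68.2 CPM in CCI, against 94.9 and 109 CPM in SHAM (-0.27, adjusted p = 0.451).

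Snap25 and Stx1a, plasma membrane SNARE genes of neurons, were not called. Snap25, which supplies a pair of helices to the SNARE bundle, was at 1783, 1711 and 1909.9 CPM in CCI, against 2210.1 and 1943 CPM in SHAM (-0.21, 95% interval -0.48 to 0.07, adjusted p = 0.44). Stx1a, a neuronal syntaxin, was at 28.0, 34.2 and 26.9 CPM in CCI, against 17.4 and 27.2 CPM in SHAM (0.42, 95% interval -0.05 to 0.89, adjusted p = 0.363).

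At the release site, Unc13a (Munc13-1), the priming factor of most glutamate synapses, was at 115, 99.98 and 115 CPM in CCI, against 105 and 114 CPM in SHAM, with a log2 fold change of 0.01 (95% interval -0.24 to 0.25). Rims1 and Rims2, the long RIM scaffolds, had -0.09 (adjusted p = 0.774) and 0.09 (adjusted p = 0.706), and Rims4, a short RIM, had 0.22 (adjusted p = 0.604). Unc13b (Munc13-2) was at 31.1, 38.0 and 39.8 CPM in CCI, against 25.9 and 28.9 CPM in SHAM, without overlap, and did not pass (0.41, SE 0.14, adjusted p = 0.185). Unc13c (Munc13-3), known from cerebellum, had 0.12 (adjusted p = 0.69).

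Of the Rab3 GTPases, which mark secretory vesicles, none was called and all 4 log2 fold changes were below 0. Rab3a, the main neuronal form, was at 232, 186 and 178 CPM in CCI, against 214 and 258 CPM in SHAM (-0.25, adjusted p = 0.419). Rab3b was at 24.9, 17.5 and 19.2 CPM in CCI, against 27.5 and 29.8 CPM in SHAM (-0.48, SE 0.16, adjusted p = 0.181), and it too was called lower without CCI 1 (-0.64, adjusted p = 0.0311). Rab3c, a neuronal form, had -0.11 (adjusted p = 0.625). Rab3d, known from exocrine and other non-neuronal secretory cells, had -0.05 (adjusted p = 0.919). Of the synapsins, which tie reserve vesicles together, Syn2 had 0.18 (adjusted p = 0.485) and Syn3 -0.06 (adjusted p = 0.811).

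Unc13d rose. It encodes Munc13-4, which readies secretory granules and lysosome-related organelles for fusion in leukocytes and platelets. It stood at 6.76, 8.54 and 6.26 CPM in CCI 1, 2 and 3, and at 3.27 and 3.15 CPM in SHAM 1 and 2. These levels rest on 146, 215 and 118 counts in CCI and on 72 and 63 counts in SHAM. The groups did not overlap. The CCI mean was 7.18 ± 1.20 CPM (SD, n = 3) and the SHAM mean was 3.21 ± 0.0882 CPM (SD, n = 2), 2.24-fold higher, a log2 difference of 1.16 (SE 0.22, 95% interval 0.65 to 1.67, adjusted p = 0.0276 by edgeR). The call was lost without SHAM 1 (1.19, adjusted p = 0.271), without SHAM 2 (1.13, adjusted p = 0.235) and in limma on the deposited TPM (0.88, adjusted p = 0.0646 with a pseudocount of 0.5).

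Stx11 and Stxbp2 encode the syntaxin and the syntaxin-binding protein that act with Munc13-4 in the granule release of cytotoxic lymphocytes; in humans, loss of any of these 3 genes causes familial hemophagocytic lymphohistiocytosis. Neither passed the test here. Stx11 was at 1.80, 1.91 and 1.70 CPM in CCI, against 0.954 and 0.650 CPM in SHAM, on 39, 48 and 32 counts in CCI and 21 and 13 in SHAM (1.16, SE 0.35, 95% interval 0.36 to 1.96, adjusted p = 0.144). Stxbp2 was at 5.18, 8.30 and 4.56 CPM in CCI, against 2.91 and 3.35 CPM in SHAM (0.95, SE 0.30, 95% interval 0.27 to 1.63, adjusted p = 0.16). For both, each CCI library lay above both SHAM libraries. Snap23, a SNAP-25 relative, was at 23.1, 24.2 and 25.1 CPM in CCI, against 17.5 and 18.1 CPM in SHAM, also without overlap (0.44, SE 0.12, adjusted p = 0.0984). Snap23 overlaps Lrrc57 in the GRCr8 gene table, and Lrrc57 had 0.08 (adjusted p = 0.78). Per length, Unc13a exceeded Unc13d by 10.01, 6.87 and 10.8 times in CCI 1, 2 and 3, and by 18.8 and 21.2 times in SHAM 1 and 2. Beside these values, all 7 microglial markers were called higher, among them Itgam at 80.4, 80.2 and 65.4 CPM in CCI, against 21.1 and 21.5 CPM in SHAM (1.82, adjusted p = 0.000278). The part of microglia in the Unc13d result was not tested.

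**Figure D3:**
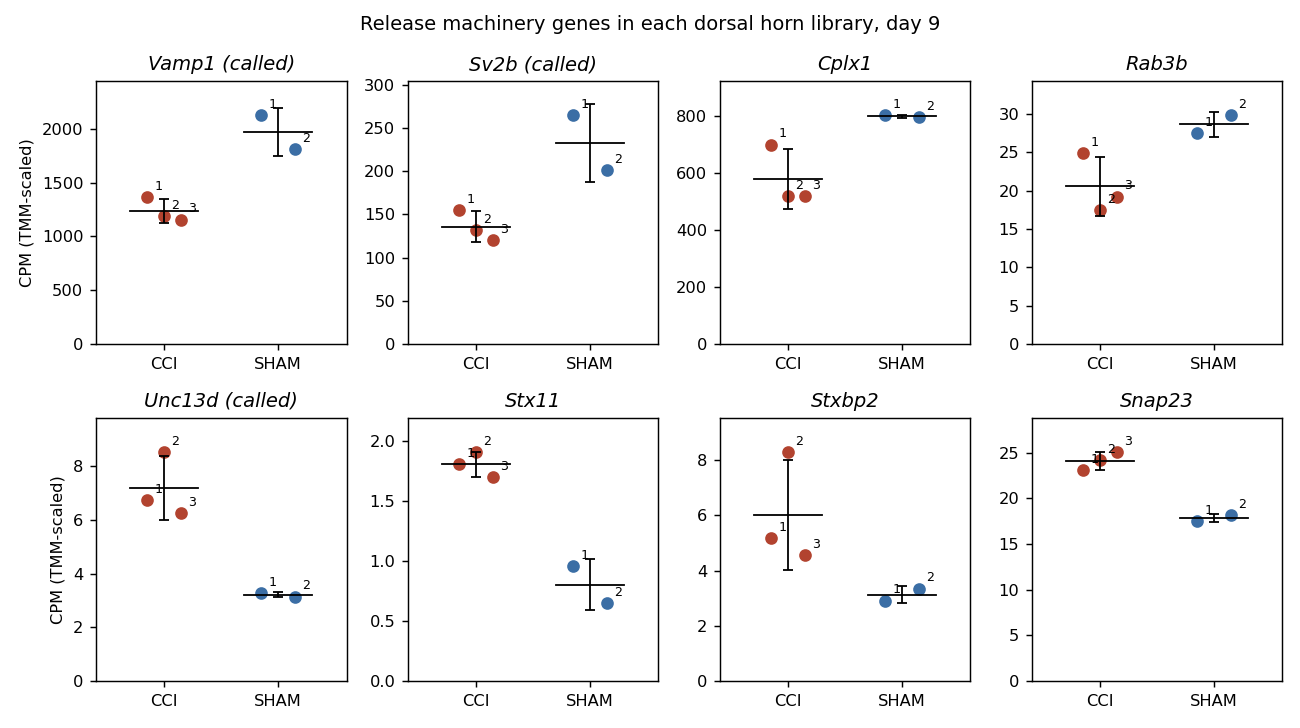
CPM of 8 genes in every library, with CCI left of SHAM, the replicate number beside each point, and the mean with SD as bars. Vamp1, Sv2b, Cplx1 and Rab3b lie lower in every CCI library than in either SHAM library, and Unc13d, Stx11, Stxbp2 and Snap23 lie higher, of which Vamp1, Sv2b and Unc13d were called.

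The promoter windows of Unc13d and its partners are shown with the same capitals, since Unc13d was the 1 member called higher. They lie at chr10:101810410-101810659 (Unc13d, minus strand), chr1:9140220-9140469 (Stx11, minus strand) and chr12:6487076-6487325 (Stxbp2, plus strand) in GRCr8.
Unc13d: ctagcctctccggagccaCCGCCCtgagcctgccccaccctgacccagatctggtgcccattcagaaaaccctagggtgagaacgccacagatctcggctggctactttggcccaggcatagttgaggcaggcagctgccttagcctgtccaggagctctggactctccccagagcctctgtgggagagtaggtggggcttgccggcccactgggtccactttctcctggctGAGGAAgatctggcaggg
Stx11: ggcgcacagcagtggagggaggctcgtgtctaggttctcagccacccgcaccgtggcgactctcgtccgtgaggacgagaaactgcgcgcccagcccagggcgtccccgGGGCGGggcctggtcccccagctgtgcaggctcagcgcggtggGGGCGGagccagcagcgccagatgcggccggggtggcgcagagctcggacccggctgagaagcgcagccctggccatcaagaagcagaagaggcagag
Stxbp2: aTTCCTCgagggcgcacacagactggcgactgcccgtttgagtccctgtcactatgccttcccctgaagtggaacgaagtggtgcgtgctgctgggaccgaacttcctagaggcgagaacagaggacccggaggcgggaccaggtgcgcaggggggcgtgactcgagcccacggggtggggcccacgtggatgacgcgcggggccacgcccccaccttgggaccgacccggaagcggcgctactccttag
GAGGAA was found once each in the Unc13d and Stxbp2 windows and not in that of Stx11, and it was present in 23.3% of all promoters of this length and in 30.4% of the 56 members. The Stx11 window held 2 GC boxes, that of Unc13d 1 and that of Stxbp2 0. A match describes the letters only.

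The syntaxins that serve fusion inside every cell lay close to no change. None of 8 syntaxins of the endosome, Golgi and endoplasmic reticulum was called (median -0.04, range -0.15 to 0.16). Stx7, of late endosomes, was at 108, 118 and 106 CPM in CCI, against 94.0 and 105 CPM in SHAM (0.16, adjusted p = 0.501), and Stx12, of recycling endosomes, was at 202, 185 and 189 CPM in CCI, against 219.7 and 204 CPM in SHAM (-0.14, adjusted p = 0.519). The groups did not overlap for either gene. Stx5, Stx6, Stx8, Stx16, Stx17 and Stx18 lay between -0.15 and 0.10. Of the other plasma membrane syntaxins, Stx2 had -0.10, Stx3 had 0.10 and Stx19, at 2.75 to 5.30 CPM, had 0.26. Snap29 and Snap47, the widely expressed SNAP genes, had -0.05 and -0.25, and Stx4, the plasma membrane syntaxin of many cell types, had -0.10. Stxbp3, Stxbp4, Stxbp5 (tomosyn, a decoy SNARE), Stxbp5l and Stxbp6 lay between -0.13 and 0.22. Snap91, the AP180 gene, was at 355, 343 and 309 CPM in CCI, against 417 and 385 CPM in SHAM, without overlap, and did not pass (-0.26, SE 0.11, adjusted p = 0.283). Over the 27 tested genes listed as widely expressed or secretory the median was -0.01, and over the 22 listed as neuronal release core it was -0.09. The list of 27 held the called Unc13d. Every CCI library lay above both SHAM libraries in 7 of the 27 and below both in 8. The list of 22 held the called Vamp1 and Sv2b, with 0 above and 8 below. Among all tested genes, 18.6% lay above and 18.0% below. Both lists were chosen with earlier results of these data known, and these counts are descriptions.

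The members leaned to the lower direction in some measures and little in others. The log2 fold change was below 0 in 36 of 69 members (52.2%), and in 48.0% of all tested genes. The groups did not overlap in 32 of 69 members, and in 36.6% of all tested genes. In 22 members (31.9%) every CCI library lay below both SHAM libraries, where 18.0% of all tested genes did so, and in 10 (14.5%) every CCI library lay above both, where 18.6% did so. An unadjusted p of at most 0.05 was reached by 14 members, and by 15.9% of all genes. Of these, 6 members (8.70%, against 9.64% of all genes) were higher and 8 (11.6%, against 6.31%) were lower. The higher ones were Unc13d, Stx11, Stxbp2, Snap23, Unc13b and Syt10, and the lower ones were Vamp1, Sv2b, Cplx1, Rab3b, Syt3, Sv2c, Syt2 and Snap91. The list was chosen by name, with earlier results of these data known, and these shares are descriptions.

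In a few members CCI 3 stood well above every other library. Rims3, a short RIM protein without the Rab3-binding end, was at 267, 193 and 655 CPM in CCI 1, 2 and 3, and at 268 and 302 CPM in SHAM. Cplx3, a complexin best known from retinal ribbon synapses, was at 12.0, 10.6 and 27.0 CPM in CCI, against 14.1 and 10.04 CPM in SHAM. In CCI 3, Rims3, Cplx3 and Vamp2 stood at 2.17, 1.91 and 1.84 times the next highest library. A lead of at least 1.5 times in CCI 3 was seen in 3 of 69 members (4.35%) and in 293 of all tested genes (2.17%). The same lead in CCI 2 was seen in 1 member, Stxbp2, and in 344 of all tested genes (2.55%). Without CCI 3 the log2 fold change became -0.31 for Rims3, against 0.38 with it, and -0.10 for Cplx3, against 0.44 with it. Syn1 was at 105, 77.1 and 169 CPM in CCI, against 87.4 and 117 CPM in SHAM, with a log2 fold change of 0.19, and of -0.17 without CCI 3. Syn1 overlaps Timp1 in the GRCr8 gene table, and Timp1 was called higher (14.4, 22.2 and 22.7 CPM in CCI, against 3.23 and 4.05 CPM in SHAM). CCI 3 was also the library with the high ribosomal share and the highest sum of Schwann cell markers, with 5 of the 7 markers highest there and Sox10 and Ngfr higher in other libraries, and their part in these values was not tested.

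**Figure D4:**
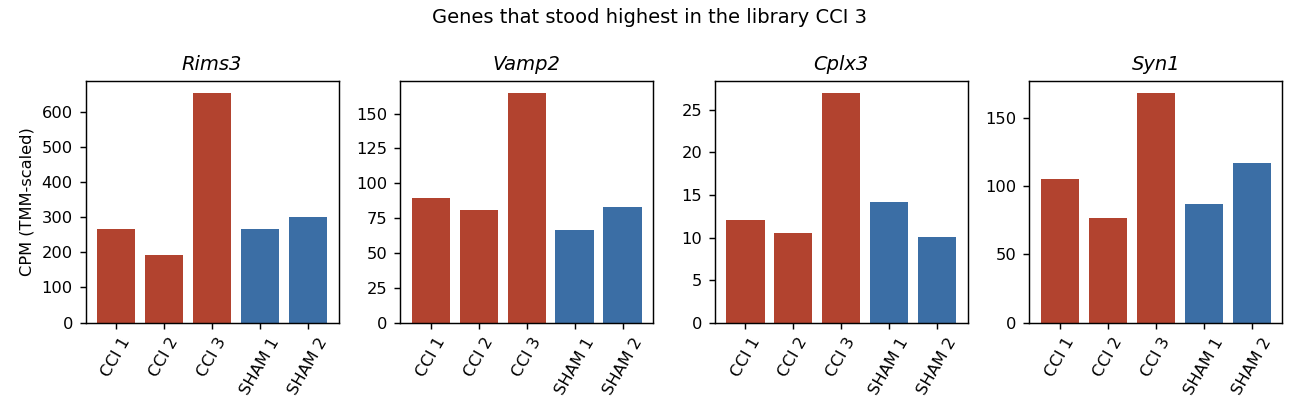
CPM of Rims3, Vamp2, Cplx3 and Syn1 in each library, with bars from 0, CCI in red and SHAM in blue. CCI 3 stands highest for each gene, at 655 CPM for Rims3 and 165 CPM for Vamp2, and the other libraries lie well below it for Rims3, Vamp2 and Cplx3.

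The wider presynaptic machinery held no call. Of 53 further genes listed for the active zone, vesicle membrane, SNARE recycling, endocytosis and transmitter loading, 50 were tested and none passed edgeR's quasi-likelihood test, the likelihood ratio test, DESeq2 or limma-voom, with a median log2 fold change of -0.07. At an unadjusted p of at most 0.05, 0 of the 50 were higher, against 9.64% of all tested genes, and 5 of the 50 were lower, against 6.31%. The lowest p-values were those of Bin1 (-0.38, adjusted p = 0.163) and Pacsin1 (-0.32, adjusted p = 0.172), both membrane-bending proteins of endocytosis, and Cltb, a clathrin light chain (-0.34, adjusted p = 0.205). The log2 fold change was below 0 in 32 of the 50, against 48.0% of all tested genes. Every CCI library lay below both SHAM libraries in 18 of the 50 genes, against 18.0% of all tested genes. In 1 of the 50 every CCI library lay above both, against 18.6% of all tested genes. By list, the genes below 0 were 11 of 14 for endocytosis, 6 of 6 for SNARE recycling, 7 of 13 for the active zone, 5 of 12 for the vesicle membrane and 3 of 5 for transmitter loading. Those with every CCI library below both SHAM libraries were 8, 1, 4, 3 and 2 in the same order. Synaptophysin, Syp, a common vesicle marker, had 0.02 (adjusted p = 0.95), the SNARE-separating ATPase gene Nsf had -0.07 (adjusted p = 0.766), and the active zone scaffold gene Bsn had 0.25 (adjusted p = 0.76). The loaders of glutamate and of GABA and glycine, Slc17a6 and Slc32a1, had 0.02 (adjusted p = 0.954) and -0.20 (adjusted p = 0.403), and the vesicular acetylcholine transporter gene Slc18a3 had -1.47 (SE 0.71, adjusted p = 0.426). Slc18a3, also on the motor neuron list, was at 24.9, 4.92 and 18.5 CPM in CCI, against 49.6 and 38.9 CPM in SHAM, and was called lower without CCI 2 (-1.03, adjusted p = 0.00806), the only such call when 1 library was left out.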

How the data were processed

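The authors deposited 1 estimated count per symbol and library. The submitters' processing notes name kallisto 0.44.0, edgeR and rn6. Another table by the authors, called TPM, was normalised by TMM (trimmed mean of M-values) per the labels and is handled here as a signal, since the column totals vary between libraries. Its values serve for levels between genes. The annotation is not given in the sources used here.

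Counts were rounded. The 13511 genes with at least 10 counts in at least 2 libraries went into edgeR 4.0.16 (R 4.3.3) with TMM, robust glmQLFit and two-sided glmQLFTest over all 5 libraries, with 3 residual degrees of freedom and Benjamini-Hochberg adjustment over all tested genes. The SE is the log2 fold change over the root of F. The thresholds are those the series states. Estimated counts that are fractional (by over 0.01) in any library mark possible read sharing, as in 12 of 69 tested members and 18.2% of tested genes. Vamp1, Sv2b and Unc13d had none. Scripts were tested on simulated data.

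Members and lists were chosen with earlier results of these data known. Named genes were the called members, 30 fixed members, the 5 largest log2 fold changes in each direction with a mean of at least 1 CPM, the untested members and, of other presynaptic genes, the 3 lowest p; further members, Syp, Nsf, Bsn, the transmitter loaders, Timp1 and the genes high in CCI 3 were named after their values were seen. A few members are not reported here, though counts and medians over lists include them. Sequences are RefSeq's for GRCr8. All 71 members matched its gene table, which was used for overlaps only, and 56 had a promoter entry. Alternatives used limma 3.58.1 and DESeq2 1.42.0. Figures were drawn with matplotlib 3.10.9.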

Additional observations from a re-analysis of the deposited data

How the results depend on the processing

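No paired analysis was possible because the labels number no replicates, and replicate numbers here follow accession order. The 384 genes called in all became 614 in DESeq2, 646 in the likelihood ratio test, and 71 to 766 when 1 library was left out. Members called higher (1 in the main test) ranged from 0 to 1 and members called lower (2) from 0 to 4 when 1 library was left out; without SHAM 1 or SHAM 2 no member was called. In limma on the deposited TPM, with a pseudocount of 0.5 or 0.1, 0 members were called higher and 1 lower, Sv2b. The likelihood ratio test, DESeq2, limma-voom, other scalings, other filters and the leaving out of ribosomal rows each called Unc13d, Vamp1 and Sv2b and no other member. Where SHAM was left with 1 library, that library was assumed to vary like the CCI group. The cause of these changes was not tested.

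Of 1072 repeats over the 67 tested members reported here, 29 changed sign, over 18 genes, none of them called. Their log2 fold changes with 1 library left out ran from -0.10 to 0.71 for Cplx3, -0.31 to 0.70 for Rims3, -0.17 to 0.42 for Syn1, -0.031 to 0.70 for Syt5, -0.040 to 0.54 for Vamp8, -0.35 to 0.088 for Syt17 and -0.40 to 0.055 for Syt15. They ran from -0.18 to 0.020 for Rims1, -0.22 to 0.013 for Stxbp6, -0.11 to 0.0069 for Snap29, -0.11 to 0.16 for Stx18, -0.016 to 0.21 for Stx3 and -0.048 to 0.029 for Stx5. They ran from -0.046 to 0.11 for Syt13, -0.050 to 0.074 for Unc13a, -0.0094 to 0.20 for Unc13c, -0.014 to 0.073 for Vamp3 and -0.047 to 0.12 for Vamp4. On the deposited TPM Stx5 had 0.0138 with a pseudocount of 0.5 and 0.0140 with 0.1. Stx11, Syt15 and Vamp5, under 3 CPM in every library, rest on few counts.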
